A study of Mus musculus with 4 samples.

Results

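The plasminogen activators and the serpins that go with them were followed in a tumorigenic and a nontumorigenic subline of mouse neural stem cells. The genes were Plau, Plat, Plaur, Serpine2, Serpinb2 and Serpinf1, and every probe set (a group of oligonucleotides read as 1 value) annotated to one of these 6 genes was taken. This gave 8 probe sets for 5 of the 6 genes, out of 45101 probe sets on the array. Serpine2 was not analysed here. The rule uses gene names only, and the array holds probe sets for 18193 named genes.

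The cells came from the telencephalon of C57BL/6 mouse embryos at embryonic day 14.5 and were p53-/-. They grew as floating spheres without serum, with PDGF, bFGF, insulin and forskolin in the medium. They were electroporated with pCMS-EGFP-HRasL61, which carries an activated HRas and a GFP, together with pBabe-neo, kept in neomycin and sorted for GFP. Both sublines share all of this. The tumorigenic subline is labelled as glioma-initiating cell-like cells (GIC, 2 arrays) and the nontumorigenic one as non-GIC (2 arrays). The labels name 1 subline of each kind and do not say whether a subline was a single clone or whether its arrays came from separate cultures. P-values therefore cover no more than the scatter of these arrays, part of which may be technical, and other differences between the sublines cannot be told apart from tumorigenicity.

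Plau encodes urokinase (uPA) and Plat encodes tissue plasminogen activator (tPA), the serine proteases that cut plasminogen into plasmin, a broad protease that dissolves fibrin and degrades matrix. Plaur encodes the urokinase receptor, a lipid-anchored protein that holds uPA at the cell surface. Serpins are protease inhibitors that trap their target in a covalent complex. Serpinb2 (PAI-2) inhibits uPA and tPA, and Serpinf1 encodes PEDF, a secreted member of the family that does not inhibit proteases and is known as a neurotrophic and antiangiogenic factor. In brain tumours uPA and its receptor are known for their part in invasion, and tPA is expressed in normal brain.

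The promoters of the members that differed most between arrays are shown first, because the Ras pathway that all 4 samples share is known to act on AP-1 and ETS factors. They are RefSeq sequences of build GRCm38.p6, 5′ to 3′ on the gene's strand, from 250 bases before to 50 bases after an annotated start. Plaur lies at chr7:24462233-24462532 on the + strand, Serpinb2 at chr1:107511173-107511472 on the + strand and Serpinf1 at chr11:75422574-75422873 on the - strand. Capitals mark matches to the AP-1 motif TGANTCA or to CAGGAA, an ETS core with its flank, on either strand.
Plaur: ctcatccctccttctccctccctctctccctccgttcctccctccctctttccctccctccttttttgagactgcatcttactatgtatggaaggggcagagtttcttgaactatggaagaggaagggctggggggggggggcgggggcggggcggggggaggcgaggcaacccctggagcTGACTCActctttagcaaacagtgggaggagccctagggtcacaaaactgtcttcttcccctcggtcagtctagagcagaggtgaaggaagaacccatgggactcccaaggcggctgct
Serpinb2: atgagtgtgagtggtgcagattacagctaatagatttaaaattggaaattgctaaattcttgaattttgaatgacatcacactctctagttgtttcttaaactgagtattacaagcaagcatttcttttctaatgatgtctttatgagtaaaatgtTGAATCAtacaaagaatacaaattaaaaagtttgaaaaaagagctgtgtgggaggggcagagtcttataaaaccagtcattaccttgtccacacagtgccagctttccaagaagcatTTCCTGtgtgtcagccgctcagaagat
Serpinf1: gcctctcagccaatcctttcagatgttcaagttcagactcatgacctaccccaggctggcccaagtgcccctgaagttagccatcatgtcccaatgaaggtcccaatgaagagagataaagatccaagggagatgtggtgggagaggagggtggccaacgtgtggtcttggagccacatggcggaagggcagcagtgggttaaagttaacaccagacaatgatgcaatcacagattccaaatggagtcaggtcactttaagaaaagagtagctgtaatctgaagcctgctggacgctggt
The Plaur window held 1 AP-1 match, which starts 69 bases before the annotated start. The Serpinb2 window held 1 AP-1 match, which starts 94 bases before the start. It also held 1 CAGGAA match, which lies after the start, in the last 50 bases of the window. A second annotated start of Serpinb2 gave an overlapping window with the same matches, both before that start. The Serpinf1 window held neither, and none of these windows held the cyclic AMP response element TGACGTCA. Over all 32851 windows of the table, 7.81% held TGANTCA, 30.6% held CAGGAA and 1.79% held TGACGTCA, and the searched motifs were read on both strands. These matches describe the letters only. An effect of the Ras pathway on these genes was not tested, and all 4 samples share the activated HRas. Promoters of Plau and Plat were not used here.

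No member passed the test for a difference between GIC and non-GIC. Of the 5 genes with a probe set, Plat, Plaur and Serpinf1 passed the filter on low values and were tested, and Plau and Serpinb2 did not. The filter asked for at least 2 arrays above 5.97, the 40th percentile of all values. Of the tested members 0 passed limma's moderated test at an adjusted p under 0.05, and 0 had an unadjusted p under 0.05. The smallest unadjusted p was 0.0501, for Plat, just above that level. A fit over 24100 single-gene probe sets, 1.7% of which passed, held 4 member probe sets and called 0. Over all 13366 genes tested, 1.92% passed the adjusted threshold and 17.9% had an unadjusted p under 0.05. Signals are on a log2 scale, so a difference of 1 is 2-fold, and having 2 arrays a group limits how precise any value is.

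**Figure D1:**
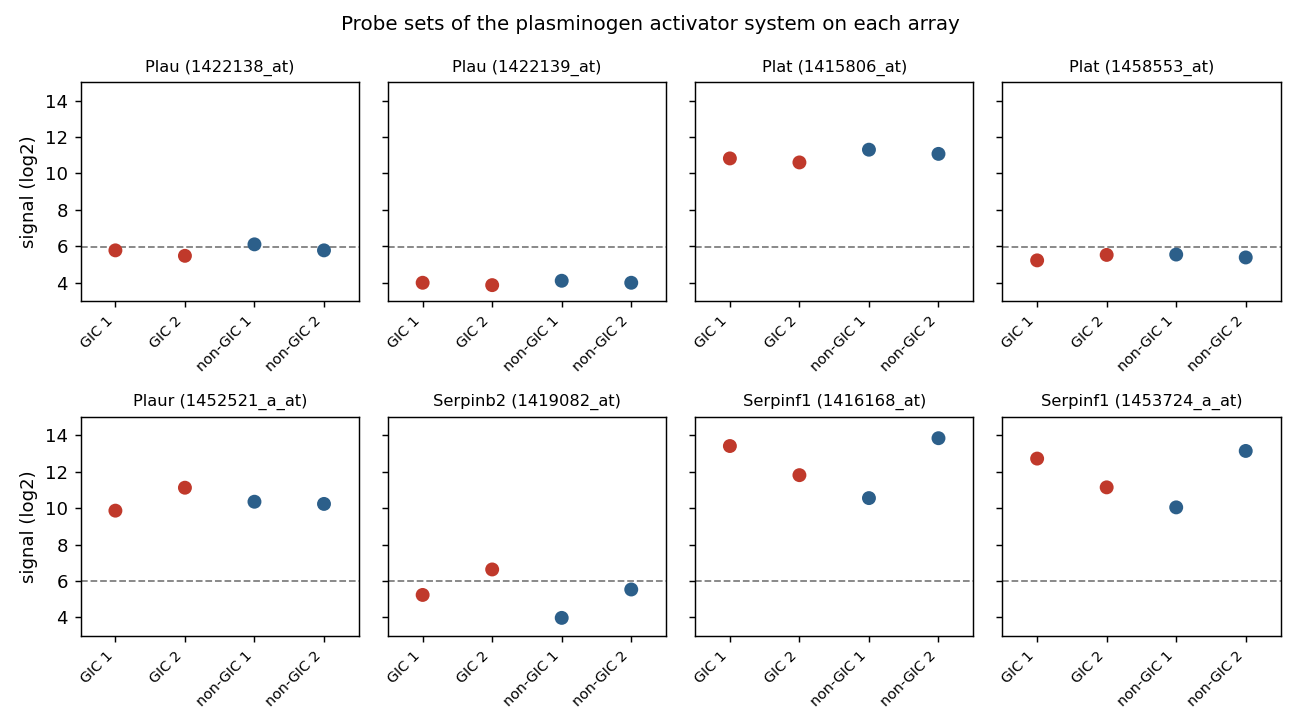
Signal (log2) of the 8 probe sets of the 5 measured genes on each array, with GIC in red, non-GIC in blue and the filter level of 5.97 as a dashed line. Plat is slightly lower on both GIC arrays (10.82 and 10.60 against 11.30 and 11.07), while both Serpinf1 probe sets differ more between arrays of the same subline than between the sublines.

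Plat was the only tested member whose groups did not overlap. Its signal in GIC was 10.82 and 10.60, against 11.30 and 11.07 in non-GIC. Both GIC arrays lay below both non-GIC arrays. The mean was 10.71 ± 0.15 for GIC against 11.18 ± 0.16 for non-GIC (± SD, n = 2), a log2 difference of -0.47 (SE 0.18, 95% interval -0.95 to 0.00), or 1.39-fold lower in GIC. It did not pass limma's test (adjusted p = 0.28). Groups that do not overlap were found for 50.4% of all tested genes, and GIC lay below in 24.9%, so this order of the arrays was common. In such bulk samples, fewer cells that express a gene and less RNA per cell cannot be told apart. A second Plat probe set stayed under the filter level on every array, at 5.22 and 5.52 in GIC and 5.54 and 5.38 in non-GIC, and its groups overlapped.

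Plau read low in both sublines. Its brighter probe set read 5.77 and 5.47 in GIC against 6.10 and 5.77 in non-GIC, and 1 of these 4 values lay above the filter level. Its other probe set had 3.99 and 3.86 in GIC and 4.10 and 3.99 in non-GIC. Neither probe set was tested in the fit. The mean of the brighter one was 5.62 ± 0.21 for GIC against 5.94 ± 0.23 for non-GIC (± SD, n = 2), and the difference of -0.31 was 1.24-fold. With no filter on low values, limma's adjusted p for Plau was 0.474. Detection calls were not used here, so Plau is not called absent.

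Plaur was well above the filter level on all arrays, with 1 array apart. Its probe set read 9.86 on GIC replicate 1, 11.12 on GIC replicate 2, 10.35 on non-GIC replicate 1 and 10.23 on non-GIC replicate 2. GIC replicate 2 was the highest and GIC replicate 1 the lowest, with the non-GIC arrays between them. The mean was 10.49 ± 0.89 for GIC against 10.29 ± 0.09 for non-GIC (± SD, n = 2), a log2 difference of 0.20 (SE 0.44, 95% interval -0.95 to 1.36, adjusted p = 0.853). Without GIC replicate 2 the difference turned to -0.43, and without GIC replicate 1 it was 0.84, so its sign rests on which GIC array is read. The GIC arrays differed 2.4-fold for Plaur, more than they did for 98.6% of tested genes, while the non-GIC arrays differed 1.09-fold.

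Serpinb2 differed more within each subline, by 1.40 in GIC and 1.56 in non-GIC, than between their means. It read 5.23 and 6.63 on GIC replicates 1 and 2, against 3.97 and 5.53 for the same numbers of non-GIC. Only GIC replicate 2 lay above the filter level, and the groups overlapped. The mean was 5.93 ± 0.99 for GIC against 4.75 ± 1.10 for non-GIC (± SD, n = 2). The difference of 1.18 (2.27-fold) was not tested in the fit, and limma with no filter left it at an adjusted p = 0.494. Leaving out GIC replicate 2 took it to 0.49 and leaving out non-GIC replicate 1 to 0.40, while it was 1.88 or 1.96 when GIC replicate 1 or non-GIC replicate 2 was left out.

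Serpinf1 had the widest spread of the tested members. Its brighter probe set had 13.41 on GIC replicate 1, 11.81 on GIC replicate 2, 10.55 on non-GIC replicate 1 and 13.84 on non-GIC replicate 2. The highest and the lowest value both belong to non-GIC, and the GIC values lie between them. The second probe set had 12.72, 11.14, 10.04 and 13.14 in the same order of arrays, so both probe sets, which read the same gene and are not independent replicates, rank the arrays alike. The mean was 12.61 ± 1.13 for GIC against 12.20 ± 2.33 for non-GIC (± SD, n = 2), a log2 difference of 0.41 (SE 1.20, 95% interval -2.72 to 3.55, adjusted p = 0.891). This interval is wide enough to hold large differences either way, so the result does not show that the sublines express Serpinf1 alike.

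The non-GIC arrays differed by 3.29 on the log2 scale for Serpinf1, or 9.78-fold. Only 13 of 13366 tested genes differed more between these arrays, and the median over all tested genes was 0.18. The GIC arrays differed by 1.59 (3.02-fold), against a median of 0.20, and 74 genes differed more. Leaving out non-GIC replicate 1 gave a difference between sublines of -1.23 and leaving out non-GIC replicate 2 one of 2.06. Without GIC replicate 1 it was -0.39 and without GIC replicate 2 it was 1.21. The adjusted p stayed at 0.381 or above in these fits.

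**Figure D2:**
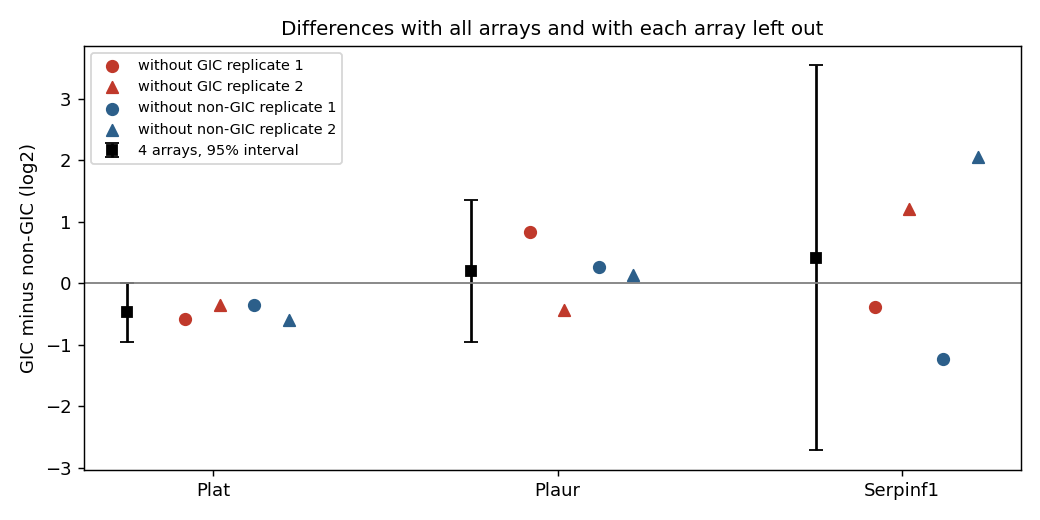
Difference between GIC and non-GIC (log2) for the 3 tested members, with all 4 arrays (black squares with 95% intervals) and with each array left out (coloured points). Plat stays between -0.59 and -0.36, Plaur runs from -0.43 to 0.84 and Serpinf1 from -1.23 to 2.06.

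The tested genes whose profile over the 4 arrays lay nearest to each member were found by Euclidean distance, after each gene's mean over the arrays was taken off. For Serpinf1 they were Ogn, the small leucine-rich proteoglycan osteoglycin (distance 0.60), Fmod, the related collagen-binding fibromodulin (0.63), and Ccdc80, a secreted matrix protein (0.73). Ogn had 12.37 and 10.84 in GIC and 9.21 and 12.11 in non-GIC. Fmod had 11.78 and 9.53 in GIC and 9.05 and 11.78 in non-GIC. All of these genes were lowest on non-GIC replicate 1 and high on GIC replicate 1 and non-GIC replicate 2. For Plat the nearest were the acyl-CoA-binding protein Dbi (0.03), the methyl-CpG-binding protein Mbd2 (0.04) and Bbx (0.04). For Plaur they were Rab26os (0.09), the ribosomal protein gene Rpl12 (0.12) and Rangrf (0.12). With 4 arrays many genes share a profile, so this list is a description.

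**Figure D3:**
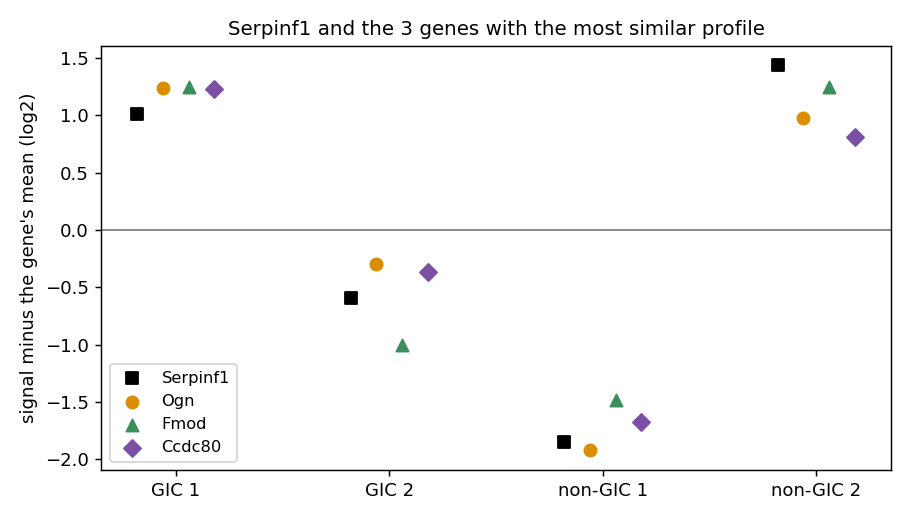
Signal of Serpinf1, Ogn, Fmod and Ccdc80 on each array minus the gene's mean over the 4 arrays (log2). All of them are below their mean on GIC 2 and non-GIC 1 and above it on GIC 1 and non-GIC 2.

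Markers of other cell types were read beside these values. Of 10 mural and fibroblast markers 7 were above the filter level on all arrays, while Rgs5, Lum and Thy1 were under it on all. The mean level of the 10 was 9.80 and 8.95 in GIC and 9.42 and 9.35 in non-GIC, but its members went different ways. The proteoglycan Dcn had 8.67 and 7.90 in GIC and 7.26 and 8.27 in non-GIC, and the receptor Pdgfrb had 12.56 and 11.18 in GIC and 11.82 and 12.30 in non-GIC. Both were higher on GIC replicate 1 and non-GIC replicate 2 than on the other arrays, as was Serpinf1. The other markers above the filter level did not follow this order. Col3a1 had 13.89 and 11.32 in GIC and 11.85 and 11.81 in non-GIC. Cspg4 had 7.38 and 7.46 in GIC and 7.57 and 7.44 in non-GIC. Between the non-GIC replicates Col1a1 went from 13.84 to 14.57 and Col1a2 from 11.46 to 9.28. The part of such cells in the Serpinf1 values was not tested. Among the 7 of these markers that were tested 1 passed, the smooth muscle actin gene Acta2. It read 13.30 and 12.79 in GIC against 14.75 and 14.76 in non-GIC (-1.71, limma adjusted p = 0.0348). Its probe set has an ID of the shared-transcript kinds, which an alternative described below leaves out.

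The mean level of 8 microglia and leukocyte markers was 5.64 to 5.78 on the 4 arrays. Of these, 3 were above the filter level on all arrays, with Csf1r at 7.26 to 7.57, Cd68 at 6.20 to 7.03 and Fcer1g at 6.69 to 6.81, while Aif1, Ptprc, Itgam and Tyrobp were under it throughout. None passed the test, and Cd68 had a difference of 0.53 (adjusted p = 0.231). The mean level of 7 endothelial markers was 5.75 to 5.83. Of these, 3 were above the filter level on all arrays, with Kdr at 7.42 to 7.58, Cldn5 at 6.23 to 6.48 and Esam at 6.71 to 6.86, while Pecam1, Cdh5, Tek and Tie1 were under it throughout, and none passed. Of 11 neural stem cell markers 8 were above the filter level on all arrays, Sox2 and Vim among them, and Olig2 and Prom1 were under it on all. All 9 that were tested had a negative difference, with a median of -0.33, beside -0.01 over all tested genes, of which 48.5% were positive. The 9 ran from -2.07 to -0.01, and Vim (-0.01), Msi1 (-0.04) and Hes5 (-0.13) were among the small ones. Sox2 was at -0.90 (limma adjusted p = 0.144). The intermediate filament gene Nes read 9.17 and 8.97 in GIC against 11.45 and 10.81 in non-GIC, a log2 difference of -2.07 (limma adjusted p = 0.0459, just under the threshold). The lipid-binding protein gene Fabp7 read 6.58 and 6.89 in non-GIC and 5.23 on both GIC arrays. The GIC values lay under the filter level, and Fabp7 passed the filter only through its non-GIC arrays, which by itself gives a negative sign. Its difference of -1.51 (limma adjusted p = 0.0258) can therefore be understated and its spread too small. How the calls of Acta2, Nes and Fabp7 fare under other settings is not given here. With the replicate number as a block, 29 genes passed over all genes, against 257 without it.

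The rest of the system was read through 5 lists with 106 genes in all, of which 95 had a probe set and 66 were tested. Of these, 1 gene rose and 1 fell in GIC, and the gene that rose passed the filter only through its GIC arrays. Over all tested genes 1.23% rose and 0.688% fell. The share of listed genes past the threshold was 3.03%, beside 1.92% of all genes, and the median difference was 0.02, beside -0.01. An unadjusted p under 0.05 was found for 25.8% of them, beside 17.9% of all genes. The lists were chosen with earlier results of these data known. These shares therefore cannot show that the system differs more than other genes, and the 3.03% rests on 2 genes.

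Serpinb1a, an inhibitor of neutrophil elastase and related proteases, fell 9.45-fold in GIC. It read 7.47 and 7.09 in GIC against 10.35 and 10.70 in non-GIC, a log2 difference of -3.24 (SE 0.22, adjusted p = 0.0137). The groups lay far apart compared with the spread within each. A second Serpinb1a probe set fell by 2.22 (adjusted p = 0.038 in a fit over all single-gene probe sets). The call was lost without either non-GIC array (adjusted p = 0.07 without replicate 1 and 0.0652 without replicate 2) and with the replicate number as a block (0.0846). Of the 7 tested genes in the list of other serpins, 6 did not pass, and the list had a median of 0.09.

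F13a1, the transglutaminase subunit of factor XIII that crosslinks fibrin, rose in GIC. It read 7.63 and 7.16 in GIC against 4.46 and 4.99 in non-GIC, a log2 difference of 2.67 (SE 0.25, adjusted p = 0.027). Both non-GIC values lay under the filter level, so the fold change can be understated. F13a1 thus passed the filter only through its GIC arrays, the group where it is high. With no filter on low values, limma's adjusted p for F13a1 was 0.0297. Its adjusted p rose to 0.0787 when GIC replicate 1 was left out, to 0.0911 when non-GIC replicate 1 was and to 0.0631 when non-GIC replicate 2 was, and with the replicate block it was 0.111, so each of these lost the call. F13a1 is not a protease, and 13 of the 14 tested genes of its list, other activating proteases and clotting factors, did not pass. The list had a median of 0.08.

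**Figure D4:**
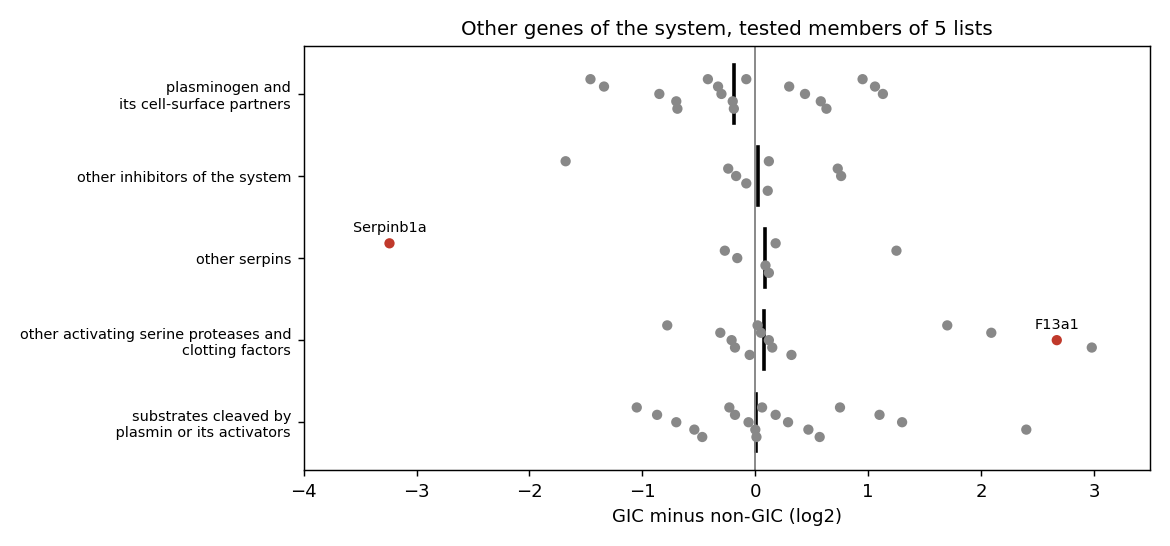
Difference between GIC and non-GIC (log2) for the tested genes of 5 lists of the plasminogen system, each dot a gene, with list medians as black bars and genes past an adjusted p of 0.05 in red. Serpinb1a (-3.24) and F13a1 (2.67) are the red dots, and the medians lie between -0.19 and 0.09.

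None of the 18 tested genes in the list of plasminogen and its cell-surface partners passed, and their median was -0.19, with 7 positive and 11 negative differences and 4 unadjusted p under 0.05. Those with the smallest p were the fibronectin receptor chain Itga5, at -1.46 (adjusted p = 0.0553), and the histone H2bc21, at -0.85 (adjusted p = 0.0772). Itga5 had 9.53 and 9.09 in GIC and 10.81 and 10.73 in non-GIC, so its groups did not overlap. Anxa2 and S100a10, which together form a cell-surface docking complex for tPA and plasminogen, were named after their values were seen. Anxa2 had 14.02 and 14.16 in GIC and 14.30 and 14.48 in non-GIC (-0.30, adjusted p = 0.293). S100a10 had a mean of 12.71 ± 0.41 in GIC against 13.40 ± 0.14 in non-GIC (± SD, n = 2), with both GIC arrays below both non-GIC arrays (-0.69, adjusted p = 0.235).

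None of the 8 tested genes in the list of other inhibitors passed, with a median of 0.02 and 1 unadjusted p under 0.05. Serpinb8, a clade B serpin like Serpinb2, had 7.23 and 7.15 in GIC and 8.12 and 9.63 in non-GIC, at -1.68 (adjusted p = 0.204). The Kunitz-type inhibitor Spint1 had a difference of -0.17 (adjusted p = 0.455). None of the 19 tested substrates of plasmin or its activators passed, with a median of 0.01 and 6 unadjusted p under 0.05. The matricellular protein Thbs1 had 13.89 and 13.52 in GIC and 12.18 and 12.63 in non-GIC, at 1.30 (adjusted p = 0.0788). The growth factor Pdgfd, which is secreted in a latent form that uPA can activate, had a difference of 1.10 (adjusted p = 0.14). Plg, the gene of plasminogen itself, was under the filter level on all arrays, between 5.00 and 5.41.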

How the data were processed

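RNA of 2 GIC and 2 non-GIC samples was hybridised to 1 array each, from 5 µg of RNA that was biotin-labelled by in vitro transcription, per the labels. The deposited values are on a log2 scale, read from their range of 2.75 to 15.12, with array medians of 6.58 to 6.63. How the authors corrected background, summarised probes and normalized them is not given in the sources used here. Over tested genes, Pearson's r was 0.976 (GIC arrays), 0.978 (non-GIC arrays) and 0.918 to 0.954 across sublines.

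Probe sets were named by the platform annotation, with symbols brought to assembly GRCm38.p6. Those of several genes (932), those unnamed (9160) and controls (64) were set aside. The probe set with the highest mean stood for each of 18193 genes. Genes past the filter were tested, two-sided, with limma 3.58.1 in R 4.3.3 (trend on intensity, 2 residual and 2.72 prior degrees of freedom, Benjamini-Hochberg over all of them, threshold 0.05). An exact permutation test of 2 against 2 arrays cannot go below p = 0.33. The procedure was run on simulated data with independent noise on each array, and no result here rests on that run. This setting does not hold the correlation between same-numbered arrays that is given below.

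The members and lists were chosen with earlier results of these data known. Named genes are the members, list genes past the threshold (or else the 2 of smallest p) and the 3 nearest genes of each tested member. Anxa2, S100a10, Plg, the markers and the genes under other observations fall outside this rule. Alternatives were the replicate block, quantile or median scaling, other filters, averaged probe sets, no probe sets with IDs of the shared-transcript kinds, other eBayes settings and each array left out.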

Additional observations from a re-analysis of the deposited data

How the results depend on the processing

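In each of the 15 alternatives, the replicate block included, 0 members passed the threshold. Outside the fits that leave out an array, Plat lay between -0.51 and -0.28, Plaur between 0.17 and 0.22 and Serpinf1 between 0.38 and 0.42. With an array left out, Plat ranged from -0.59 to -0.36, Plau from -0.48 to -0.15, Serpinb2 from 0.40 to 1.96, Plaur from -0.43 to 0.84 and Serpinf1 from -1.23 to 2.06. Plaur turned sign without GIC replicate 2, and Serpinf1 without GIC replicate 1 (-0.39) or non-GIC replicate 1 (-1.23). Over all genes 257 passed, 198 to 261 when scaling, filter, choice of probe set or eBayes was varied, 12 to 188 with an array left out, and 409 probe sets when all were tested. Of the listed genes 2 passed, 0 to 2 with an array left out and 1 with the filter at the 60th percentile, where F13a1 was no longer tested. With quantile or median scaling, averaged probe sets or no probe sets of the shared-transcript kinds, 3 listed genes passed in each. With the replicate numbers of the titles as a block 29 genes passed, 0 of them listed. The deviations of same-numbered arrays correlated at -0.32 over genes, and a block with crossed numbers, chosen after seeing the data, called 685 genes, 10 listed genes and 0 members. Plaur had no value once probe sets of the shared-transcript kinds were left out, since its single probe set is one. The cause of these changes was not tested, and the fits with an array left out also had fewer arrays. With 2 arrays per group, a difference of the size seen for Serpinf1 or Plaur cannot be told from the spread between arrays, and for Plau and Serpinb2 the signal near or under the filter level limits the values further.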

Other observations

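Some listed proteases, a substrate and an inhibitor had differences that did not pass the test, and they were picked after their values were seen. The genes described below all had a higher mean in GIC. Other listed substrates were lower in GIC, such as Igfbp3 (-1.05, limma adjusted p = 0.209) and Nid1 (-0.70, adjusted p = 0.172). So were the proteases Htra1 (-0.78, adjusted p = 0.326) and Klk8 (-0.31, adjusted p = 0.274) and the inhibitor Serpinb8 (-1.68, adjusted p = 0.204). Differences were positive for 9 and negative for 5 tested genes in the protease list, 4 and 4 among the other inhibitors and 11 and 8 among the substrates. C1s1, a protease of the classical complement pathway, read 10.42 and 8.53 in GIC against 5.08 and 7.91 in non-GIC, a log2 difference of 2.98 (limma adjusted p = 0.274). Its partner protease C1ra read 9.51 and 7.88 in GIC against 5.82 and 8.18 in non-GIC (1.70, adjusted p = 0.43). For both genes non-GIC replicate 1 was the lowest array, under the filter level, and GIC replicate 1 the highest. The lectin-pathway protease Masp1 read 11.94 and 11.90 in GIC against 9.23 and 10.44 in non-GIC (2.09, adjusted p = 0.108). Stromelysin-1, Mmp3, a metalloproteinase that plasmin can activate, read 9.49 and 9.54 in GIC against 6.23 and 8.00 in non-GIC (2.40, adjusted p = 0.146). Tfpi, which inhibits the tissue factor pathway, read 9.92 and 9.40 in GIC and had 7.70 and 10.10 on non-GIC replicates 1 and 2 (0.76, adjusted p = 0.682).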
